A study of Mus musculus with 4 samples.

Results

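The transcripts described here come from 10 mouse genes for RNA-binding proteins whose levels or activity differ between tissues and developmental stages: Rbpms, Rbpms2, Msi2, Msi1, Celf1, Rbfox2, Qki, Mbnl1, Mbnl2 and Ptbp2. They were listed by name with earlier results of these data known, so their share with peaks is not that of a list chosen blind to them. A DHX9 peak was given to a gene when its midpoint lay inside the gene body. All 10 genes were found, Qki under its RefSeq symbol Qk, among 21900 protein-coding genes. They held 584 of the 59563 peaks of the series (0.98%). The peaks come from FLASH, a CLIP-seq method in which ultraviolet light links RNA to the proteins that touch it, so that the RNA fragments recovered with an antibody against 1 protein can be sequenced. The samples were 2 pulldowns with a rabbit antibody against DHX9 and 2 control pulldowns with rabbit IgG, labelled as biological replicates A and B, all from WT26, a feeder-independent male ES cell line of C57BL/6x129sV background grown with LIF. For the 4 samples the authors deposited a single peak list that gives position and strand and leaves the score empty. No height, fold, p-value, read count or value per replicate could be compared, and the depth of sequencing is unknown.

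DHX9 is a helicase that opens base-paired RNA. The proteins encoded by these 10 genes bind short sequence motifs in RNA and act on splicing, stability or translation. Several of them set tissue-specific patterns of alternative splicing: the Rbfox, Mbnl, Celf, Qk and Ptbp proteins are known for this in muscle, heart and brain, Rbpms proteins in smooth muscle, and the Musashi proteins Msi1 and Msi2 for control of translation in stem and progenitor cells. The question a peak list can answer is which of these transcripts gave called DHX9 peaks in ES cells, on which strand and where along the gene. A gene without peaks may have had no RNA in these cells or RNA without called binding, and these cannot be told apart because the list holds no measure of RNA amount.

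Start-site sequences are shown for Rbpms2 and Celf1, which held many peaks, and for Mbnl1 and Ptbp2, which held none. For Rbpms2 and Celf1 the distance from the start site shown to the first peak is given below. Of the Mbnl1 windows, the one with the higher GC content is shown. Whether start-site sequence bears on the peaks was not tested. The windows run from 250 bases before to 50 bases after an annotated start (RefSeq, GRCm38.p6, given on the strand of the gene), and capitals mark GC boxes (GGGCGG) and CCAAT boxes (CCAAT), searched on both strands with overlapping matches counted apart. The windows of Rbpms2 (chr9:65630332-65630631, plus strand) and Celf1 (chr2:90940147-90940446, plus strand) belong to genes with 57 and 109 peaks. Those of Mbnl1 (chr3:60500929-60501228, plus strand, the second of its 2 windows) and Ptbp2 (chr3:119783339-119783638, minus strand) belong to genes without a peak.
Rbpms2: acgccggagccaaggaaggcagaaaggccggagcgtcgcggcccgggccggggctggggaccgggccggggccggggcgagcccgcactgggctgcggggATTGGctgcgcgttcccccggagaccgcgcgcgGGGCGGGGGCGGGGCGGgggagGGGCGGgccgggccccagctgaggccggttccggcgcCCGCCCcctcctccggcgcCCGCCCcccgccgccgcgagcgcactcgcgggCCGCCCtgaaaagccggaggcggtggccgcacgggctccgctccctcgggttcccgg
Celf1: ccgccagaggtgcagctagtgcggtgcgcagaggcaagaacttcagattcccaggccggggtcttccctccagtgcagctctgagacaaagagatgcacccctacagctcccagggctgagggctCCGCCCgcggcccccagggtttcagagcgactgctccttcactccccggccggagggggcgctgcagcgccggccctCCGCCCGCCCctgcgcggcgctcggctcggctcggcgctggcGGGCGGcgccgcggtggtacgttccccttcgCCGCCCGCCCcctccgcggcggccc
Mbnl1: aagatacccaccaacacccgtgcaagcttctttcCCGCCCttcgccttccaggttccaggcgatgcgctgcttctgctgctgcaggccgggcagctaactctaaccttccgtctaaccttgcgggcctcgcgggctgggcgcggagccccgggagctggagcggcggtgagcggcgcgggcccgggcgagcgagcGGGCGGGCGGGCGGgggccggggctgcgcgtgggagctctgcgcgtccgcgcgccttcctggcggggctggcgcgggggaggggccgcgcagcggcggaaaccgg
Ptbp2: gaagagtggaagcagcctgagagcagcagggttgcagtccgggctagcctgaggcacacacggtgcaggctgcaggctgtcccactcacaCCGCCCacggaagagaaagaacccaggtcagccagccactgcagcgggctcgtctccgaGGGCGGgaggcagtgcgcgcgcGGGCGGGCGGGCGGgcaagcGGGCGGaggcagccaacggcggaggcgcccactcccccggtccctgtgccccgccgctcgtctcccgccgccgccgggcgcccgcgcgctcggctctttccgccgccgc
The Rbpms2 window had a GC content of 83.3% with 7 GC-box matches and 1 CCAAT match, and the Celf1 window 74.3% with 6 GC-box matches. The Mbnl1 and Ptbp2 windows had 75% and 74.7%, with 4 and 6 GC-box matches. At least 1 GC box was present in 46.2% and at least 1 CCAAT box in 38.2% of 21263 windows of protein-coding genes. The median GC content of all windows was 56.3%, with 61.7% for genes with a peak and 54.7% for genes without one. The windows of Msi2 and Qk, which had peaks, lay between 75% and 81.7%. The first Mbnl1 window (39.3%) and the Mbnl2 window (56.3%) were lower. Start-site GC content thus overlapped between members with and without peaks. No window was found in the promoter table for Rbpms, Msi1 or Rbfox2.

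No peak overlapped a window of Msi2, Rbpms2, Celf1 or Qk, the members with both a peak and a window. The windows of Mbnl1, Mbnl2 and Ptbp2 are not counted here, since these genes held no peak. Among 4051 protein-coding genes with a peak and a window, 9.82% had a peak over a window. With so few members, the lack of an overlap is no sign of a difference from this share. In Rbpms2 the first peak downstream, of 217 bases (chr9:65630645-65630861), began 63 bases after the start site printed above, and in Celf1 a peak of 149 bases (chr2:90940640-90940788) began 243 bases after it. The first peak of Qk (chr17:10318729-10318836) began 525 bases after its start site. In Msi2 the nearest peak downstream (chr11:88711472-88711701) began 6528 to 6576 bases after the 3 annotated start sites. Peaks therefore began close to the start in Rbpms2, Celf1 and Qk, and several kb into the gene in Msi2. In Rbpms, read along the strand of its peaks, the first peak (chr8:33929517-33929887) had its midpoint 0.22 kb from the end of the gene body taken as the start.

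Peaks were present in 7 of the 10 genes. Among all protein-coding genes 22.8% held a peak, and among the 6919 genes with lengths between those of the shortest and the longest member 35.1% did. All 7 had at least 3 peaks, a count reached by 14.8% of protein-coding genes. The peaks were spread unevenly: Rbpms held 186, Msi2 180, Celf1 109 and Rbpms2 57, together 91.1% of the 584. Rbfox2 held 28, Qk 20 and Msi1 4, while Mbnl1, Mbnl2 and Ptbp2 held none. Of the 10 genes 4 held at least 50 peaks, which 0.941% of protein-coding genes did, and 3 held at least 100, which 0.192% did. Of the members without a peak, Mbnl1 and Mbnl2 (157 and 156 kb) were longer than Rbpms (147 kb) and Celf1 (79.2 kb), while Ptbp2 (65.9 kb) was shorter than all members with a peak except Rbpms2. The median number of peaks was 24 per member over all 10, against 0 over all protein-coding genes. No test was made, since 1 list gives no spread between pulldowns.

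**Figure D1:**
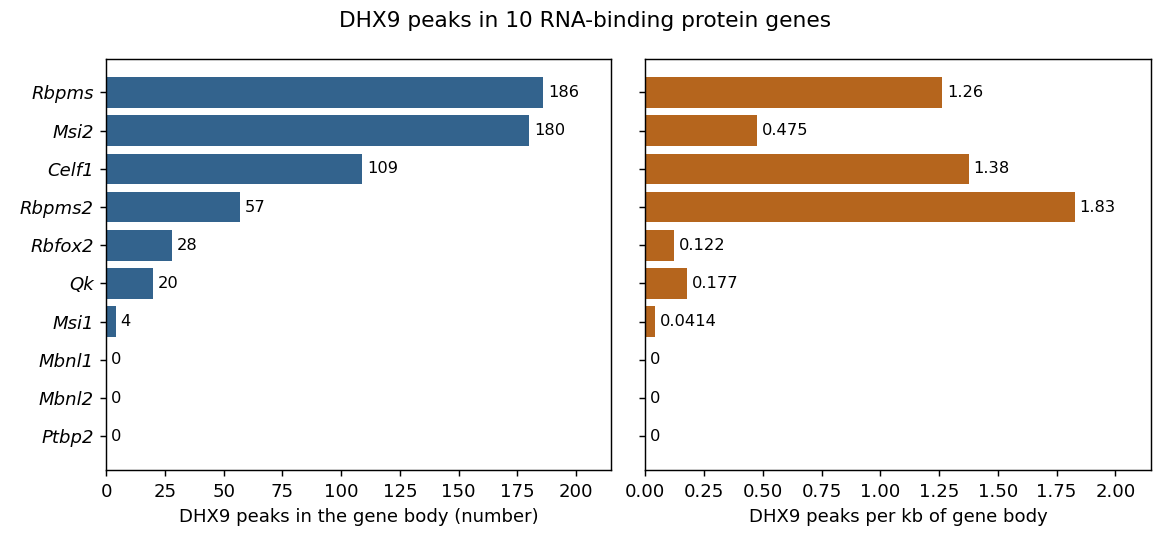
Number of DHX9 peaks (left) and peaks per kb of gene body (right) in each of the 10 genes, 1 bar per gene from 1 list without replicate error. Rbpms has the most peaks (186), though Msi2 has more once close peaks are merged. Rbpms2 has the most per kb (1.83), while Mbnl1, Mbnl2 and Ptbp2 have none.

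Rbpms and Rbpms2 encode closely related proteins with a single RNA recognition motif, known as splicing regulators of smooth muscle and, for Rbpms2, of heart. Both transcripts were densely covered. Rbpms (chr8:33782643-33929922) held 186 peaks, all on the minus strand, of which 177 lay in no other gene and 9 also in a long noncoding RNA gene. Only 4 protein-coding genes held more peaks. Its peaks had a median width of 224.5 bases, against 196 in the whole list, and the widest had 684 bases (chr8:33892948-33893631). Rbpms2 (chr9:65629356-65660536), with a gene body of 31.2 kb, held 57 peaks, all on the plus strand and all in no other gene. Rbpms thus had 129 peaks more than Rbpms2 in a gene body 4.72 times as long, but fewer per kb: 1.26 peaks per kb in Rbpms and 1.83 per kb in Rbpms2. Peaks covered 30.1% of the bases of Rbpms and 41.9% of those of Rbpms2. With peaks within 50 bases merged, 133 runs (0.903 per kb) remained in Rbpms and 42 (1.35 per kb) in Rbpms2. With 200 bases they were 68 (0.462 per kb) and 20 (0.641 per kb), so that Rbpms2 was the denser of the pair under each of the 3 counts.

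Of the Musashi genes, Msi2 held many peaks, all but 5 of them in its first 210 kb, and Msi1 held a few peaks at one end. Msi2 (chr11:88339382-88718306), whose product is known as a regulator of stem cell self-renewal, held 180 peaks, all on the minus strand and in no other gene, and 5 protein-coding genes held more. None of the 274 protein-coding genes with a length within 20% of its 379 kb held more, and 21.5% of them held a peak. Msi1 (chr5:115359059-115455698), known as a marker of neural progenitors, held 4 peaks on the plus strand. The difference was 176 peaks, with 0.475 peaks per kb in Msi2 and 0.0414 per kb in Msi1, a ratio of 11.5. The 4 peaks of Msi1 were 144 to 208 bases wide and spanned 3.34 kb, from the first at chr5:115361124-115361269 to the last at chr5:115364432-115364639. No peak lay in the 91.2 kb between the last of them and the end of the 96.6-kb gene body. A RefSeq gene body spans all transcript models of a gene, for Msi1 5 curated and 4 predicted ones, and which of them reach the 4 peaks was not analysed here. Msi1 lies in a gene-dense region in which 15 of 20 protein-coding genes within 300 kb held peaks, 121 in all, and 34 peaks lay within 50 kb of its ends. No peak lay within 50 kb of either end of Msi2.

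Of the 6 Celf genes, Celf1 alone held peaks. Celf1 (chr2:90940259-91019497), which regulates splicing and mRNA decay and is known from heart and skeletal muscle, held 109 peaks, all on the plus strand and in no other gene, or 1.38 per kb. Peaks covered 30.4% of its bases, and 4 of 1374 genes of similar length (within 20%) held more. Celf2, Celf3, Celf4, Celf5 and Celf6 held none. These span 18.5 kb (Celf3) to 857 kb (Celf2), so both shorter and longer paralogues than Celf1 were without peaks.

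Rbfox2 was likewise the only Rbfox gene with peaks. Rbfox2 (chr15:77078990-77308434), an alternative splicing regulator that is broadly expressed while its paralogues are neuronal or muscle genes, held 28 peaks, all on the minus strand and in no other gene. At 0.122 per kb it had fewer peaks per kb than Rbpms2, Celf1, Rbpms, Msi2 and Qk, and 15 of 463 genes of similar length held more peaks. Rbfox1, with 1528 kb the longest gene listed here, and Rbfox3, the gene of the neuronal marker NeuN, held none. Qk (chr17:10206471-10319361), which encodes the KH-domain protein quaking, known for myelination and for promoting circular RNAs, held 20 peaks, all on the minus strand. Its 0.177 per kb exceeded Rbfox2, and 102 of 1104 genes of similar length held more peaks.

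Neither Mbnl gene nor Ptbp2 held a peak on either strand. Muscleblind proteins Mbnl1 and Mbnl2 promote the splicing patterns of differentiated tissue and are sequestered by expanded CUG repeats in myotonic dystrophy. Mbnl1 (chr3:60472559-60629750) and Mbnl2 (chr14:120275652-120431698) held none over 157 and 156 kb, and the paralogue Mbnl3 on chromosome X held none over 92.5 kb. Of protein-coding genes with lengths within 20% of theirs, 33.9% and 33.2% held a peak, with medians of 5 among those with any. Ptbp2 (chr3:119718741-119784647) encodes the polypyrimidine tract binding protein of neurons and germ cells and held none over 65.9 kb. Its paralogue Ptbp1, the form of most other cells, held 3 peaks, of which 1 lay in no other gene, and Ptbp3 held none. By family, peaks were present in 2 of 2 Rbpms, 2 of 2 Msi, 1 of 6 Celf, 1 of 3 Rbfox, 1 of 3 Ptbp and 0 of 3 Mbnl genes.

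**Figure D2:**
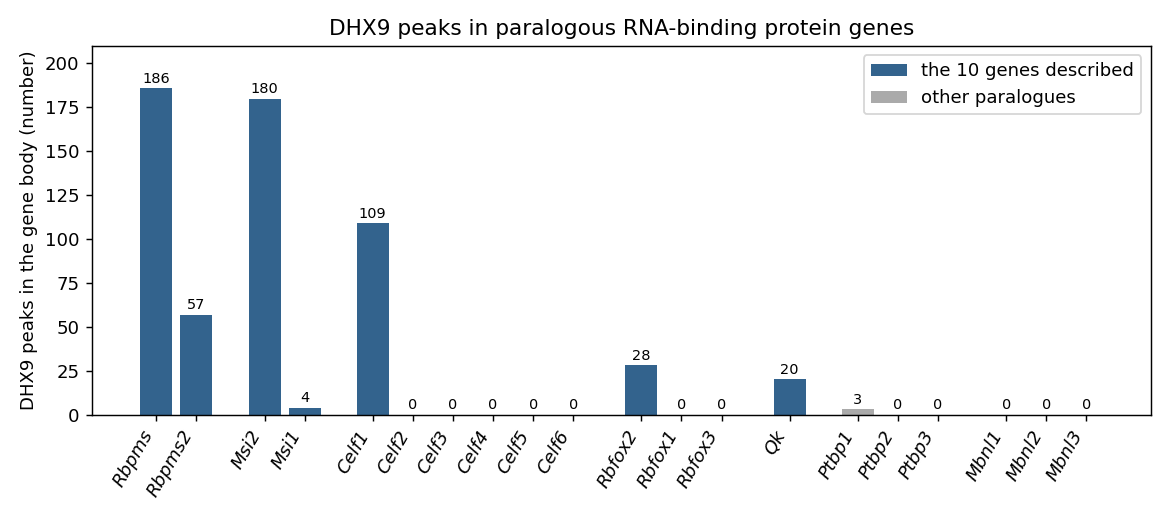
Number of DHX9 peaks per gene for the 10 genes (blue) and their other paralogues (grey), grouped by family. In the Celf and Rbfox families 1 gene each holds all peaks (109 in Celf1 and 28 in Rbfox2), and the 3 Mbnl genes hold none.

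Mbnl1, Mbnl2 and Ptbp2 lay in long stretches of chromosome without peaks. The stretch free of peaks on both strands measured 4344 kb around Ptbp2, 2726 kb around Mbnl1 and 1470.2 kb around Mbnl2. Not every gene without peaks lay so far from others. Around the paralogues of members that held none, this stretch ran from 68.6 kb (Celf3) to 6601 kb (Celf4). No protein-coding gene lay wholly within 300 kb of Ptbp2 or Mbnl1, and the 2 near Mbnl2 had no peak. Qk, with 20 peaks, also lay far from other peaks. The nearest peaks outside it were 1919.9 and 2375 kb away, and the 1 protein-coding gene within 300 kb had none. Around Celf1, 7 of 20 protein-coding genes within 300 kb held peaks, around Rbpms 5 of 10, around Rbpms2 5 of 14, around Msi2 4 of 9 and around Rbfox2 3 of 15. Members with peaks, except for Qk, had another peak within 119 kb, and the members without peaks had none within 341 kb. Whether the surroundings of a gene bear on its peaks was not tested.

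**Figure D3:**
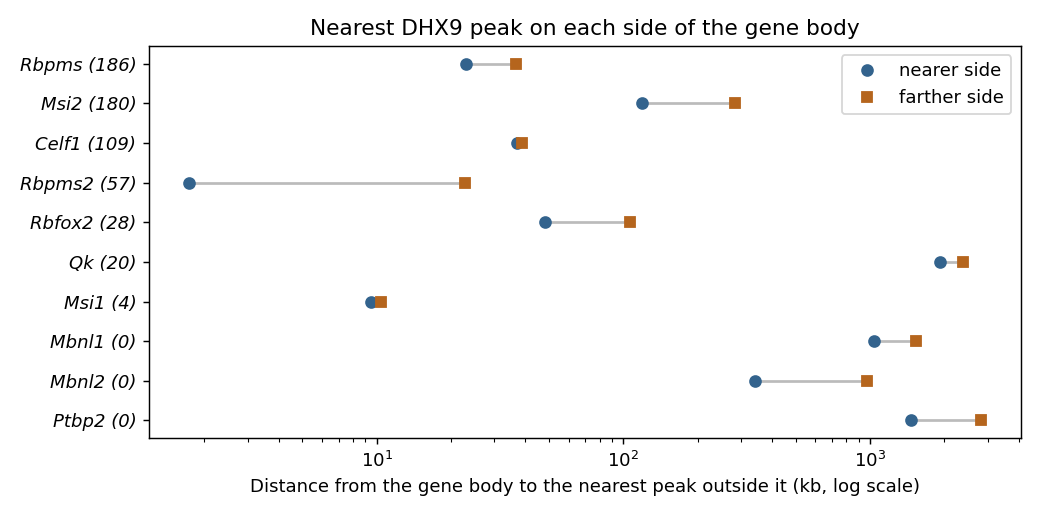
Distance from each gene body to the nearest peak outside it on the nearer side (circle) and the farther side (square), in kb on a log scale, with the gene's own number of peaks in parentheses. Mbnl1, Mbnl2, Ptbp2 and Qk are at least 341 kb from any other peak, and the other 6 genes are 1.73 to 119 kb from one on the nearer side.

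Strand was uniform in each gene with peaks. All 584 peaks lay on 1 strand per gene, 170 on plus and 414 on minus. The promoter table gave the strand of 4 of these 7 genes (Msi2, Rbpms2, Celf1 and Qk), and all 366 of their peaks were on the strand of the gene (100%, 95% Wilson interval 99.0 to 100%, which covers counting error only). Peaks of 1 gene are not independent in strand, so with 4 genes this interval is narrower than it should be. In 3443 protein-coding genes with a strand in that table and peaks in no other gene, 34416 of 34782 peaks (98.9%) were on the gene's strand. For Rbpms, Rbfox2 and Msi1 the direction of the gene was taken from the peaks, which matched the table in 1011 of 1018 genes with at least 10 peaks and 20 kb. Msi1, with 4 peaks, is outside that set, so this match does not cover it. The peaks of the members are thus on the sense strand wherever this could be read, as in nearly all genes.

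Along the gene, peaks were densest near the start in Msi2, Rbpms and Celf1, in the middle in Rbfox2 and Rbpms2, and near the end in Qk. In Msi2 the first 20% of the gene body held 100 of 180 peaks (55.6%, 95% Wilson interval 48.3 to 62.6%) and the last 20% held 2. In Rbpms they held 83 (44.6%, 37.7 to 51.8%) and 25 of 186, and in Celf1 43 (39.4%, 30.8 to 48.8%) and 6 of 109. Neighbouring peaks are not independent of each other, so these intervals are narrower than they should be. Over 1242 protein-coding genes with at least 10 peaks and 20 kb, the mean was 28.0% in the first and 12.3% in the last 20%. The share in the first 20% was higher than that of Msi2 in 14.0% of these genes and higher than that of Qk in 71.6%. It was higher than that of Rbpms in 21.8% and than that of Celf1 in 27.8%. The first 20% held more peaks than the last in 836 of the 1242 genes, and in 4 of the 6 members with at least 10 peaks. In Rbpms2, 7 peaks (12.3%) lay in the first and 13 (22.8%) in the last 20%. In Rbfox2, 4 of 28 peaks (14.3%) lay in the first 20% and none in the last 40%.

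Qk had the reverse order of Msi2, with 2 of 20 peaks in the first 20% and 8 (40%) in the last. A higher share in the last 20% was found in 6.36% of the 1242 genes, and the last 20% held more peaks than the first in 23.8%. Near its end 7 peaks lay within 9.18 kb (chr17:10207185-10216361), including the widest of the gene, with 445 bases (chr17:10207512-10207956). The last peak was 0.778 kb from the end of the gene body. With only the 8 wider Qk peaks (median width or above), the last 20% held 25.0% and the first 20% held 12.5%. The remaining peaks of Qk were scattered. The median spacing over all its peaks was 4027.5 bases, against 345.75 in Rbpms2, 374.5 in Rbpms, 390 in Celf1 and 517.5 in Msi2. Thus 5 of 19 spacings in Qk were under 1000 bases, and 156 of 185 in Rbpms.

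**Figure D4:**
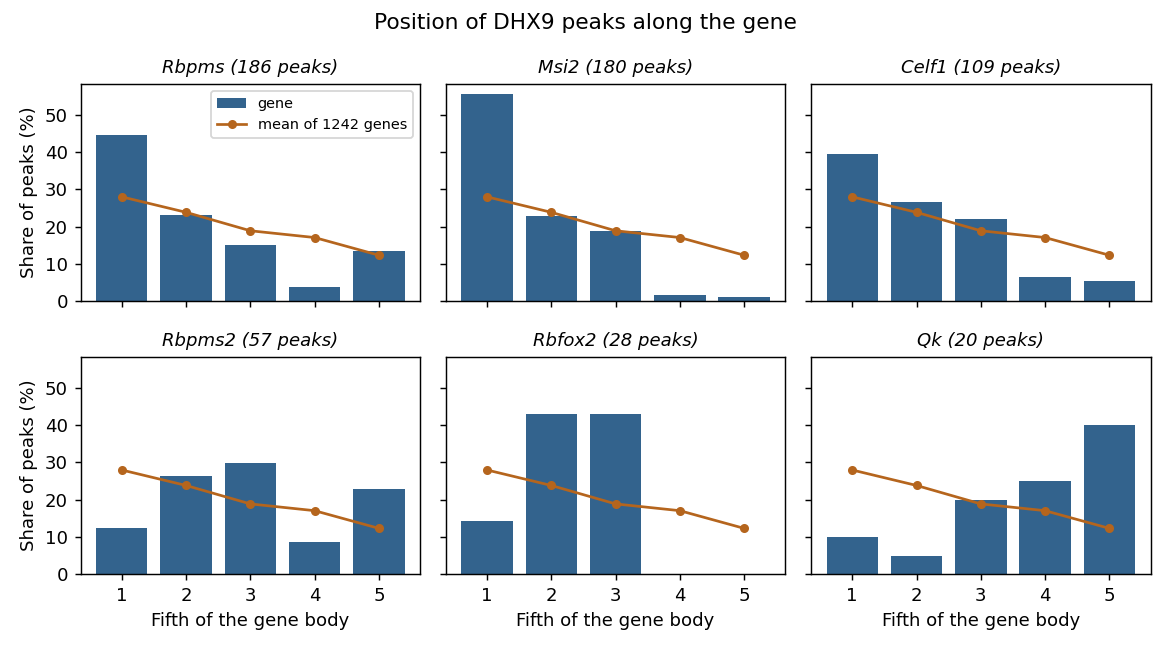
Share of a gene's DHX9 peaks (%) in each 20% of the gene body, read along the strand of the gene (bars), for the 6 genes with at least 10 peaks, and the mean over 1242 protein-coding genes (line). Msi2, Rbpms and Celf1 are highest in the first 20% (55.6, 44.6 and 39.4%), Rbfox2 between 20% and 60% and Qk in the last (40%).

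The covered bases showed the same profile. In Rbpms, peaks covered 69.2% of the bases of the first 20% of the gene body, 5.07% between 60% and 80% of it and 19.6% in the last 20%. In Celf1 the covered part was 59.9% in the first and 8.79% in the last 20%, and in Msi2 28.0% and 0.355%. In Rbpms2 it was 26.5% in the first 20%, 61.2% between 40% and 60% and 49.4% in the last 20%, and in Qk 1.59% in the first and 7.04% in the last. Coverage matters for Rbpms in particular, since its peaks near the start lay so close together that merging those within 200 bases left equal shares of 23.5% of runs in the first and the last 20%.

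How continuous the peaks were also differed between the genes. In windows of 10 kb from the start, peaks were present in 15 of 15 windows of Rbpms, 4 of 4 of Rbpms2, 7 of 8 of Celf1, 10 of 12 of Qk, 23 of 38 of Msi2, 9 of 23 of Rbfox2 and 1 of 10 of Msi1. Peaks covered 9.93% of the bases of Msi2, 3.45% of Qk, 2.89% of Rbfox2 and 0.682% of Msi1. The median peak width ran from 153.5 bases in Msi1 to 224.5 in Rbpms, with 221 in Rbpms2, 205 in Celf1, 199 in Msi2, 194.5 in Qk and 193 in Rbfox2. With peaks within 50 bases merged, Msi2 kept 162 runs and Celf1 87, while the 20 peaks of Qk and the 4 of Msi1 all stayed apart.

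Within the long genes, peaks stood in separate groups. In Msi2 the first 80 kb from the start held 100 peaks (1.25 per kb), the next 130 kb held 75 (0.577 per kb) and the remainder held 5, with a gap of 51.2 kb between neighbouring peaks. The microRNA gene Mir378b lies in this last part of Msi2 (chr11:88352773-88352864), on the opposite strand, and no peak overlapped it. In Rbpms the first 50 kb held 123 peaks (2.46 per kb) and the densest 10 kb, at 10 to 20 kb from the start, held 30. In Celf1 the first 40 kb held 93 of 109 peaks (2.33 per kb). A stretch of 18.7 kb that began 56.9 kb from its start had none, and a further 6 peaks lay in the last 10% of the gene body.

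In Rbfox2, whose several start sites are known to give transcripts with different first exons, 21 of 28 peaks lay in 2 groups. The first held 10 peaks (chr15:77238295-77243677), 64.8 to 70.1 kb from the start, and the second 11 (chr15:77195216-77206845), 102 to 113 kb from it. Upstream of these, 5 peaks were spread over the first 60 kb, beginning 10.3 kb from the start. The last peak lay 116 kb from the end of the gene body, and this part held none.

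**Figure D5:**
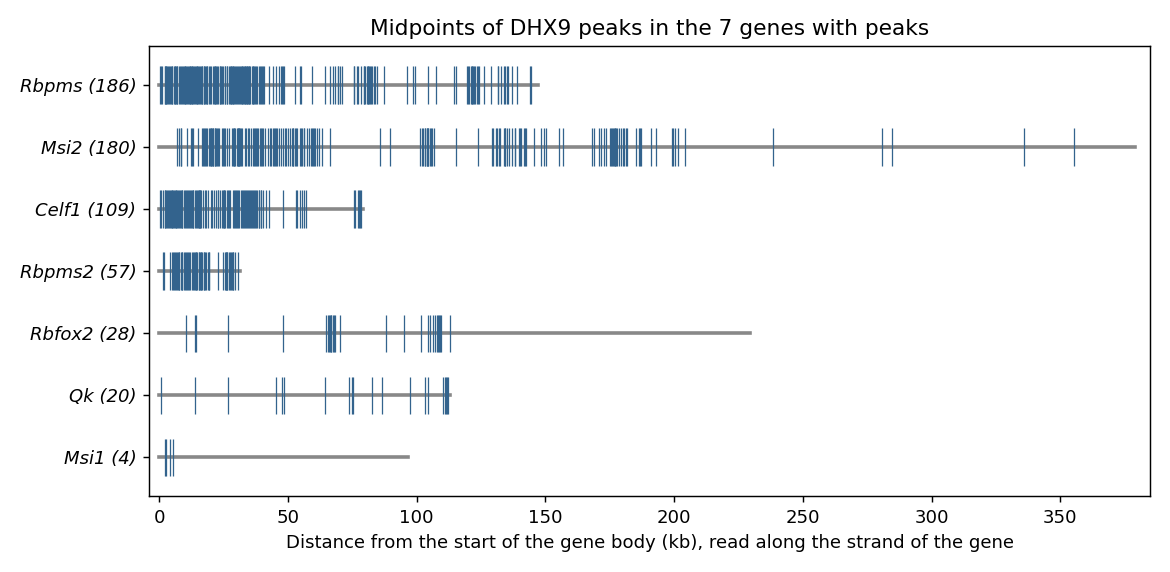
Position of every peak midpoint (vertical lines) along the 7 genes with peaks, as distance in kb from the start of the gene body read along the strand of the gene; grey lines show the length of the gene body and parentheses the number of peaks. Msi2, Rbpms and Celf1 are dense near the start, and Rbfox2 has 2 groups and no peak in its last 116 kb. The 4 peaks of Msi1 lie within 5.48 kb of the end taken as its start from their strand.

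The genes next to the members in the ranking had various functions. By number of peaks in this list alone, Ctbp2, a transcriptional corepressor gene, stood directly above Rbpms with 199, and Kat6b, a histone acetyltransferase gene, directly below Msi2 with 173. Celf1 stood between Zdbf2 (110) and Sntb2, a syntrophin gene with the same 109 peaks. Rbpms2 shared its 57 peaks with 7 further genes, among them Pspc1, which encodes a paraspeckle protein, and Srcap, a chromatin remodeller gene.

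Of 39 further genes for tissue-regulated RNA-binding proteins and paralogues of the members, 15 (38.5%) held a peak and 10 held at least 3, against 22.8% and 14.8% of all protein-coding genes. They were longer than most genes, with a median of 77.5 kb against 17.1 kb, and among protein-coding genes within 20% of their lengths a median of 33.5% held a peak, so that 38.5% is near the share in genes of their length. Their median number of peaks was 0, as over all protein-coding genes. Among those with many peaks were Igf2bp1, an mRNA-binding protein gene of embryonic tissue, with 86, the STAR-family gene Khdrbs1 with 30 and Elavl1, which encodes the mRNA stabiliser HuR, with 29. Some paralogues in this list differed and others did not, as in the following genes, chosen after their values were seen. Elavl2, Elavl3 and Elavl4, known from neurons, held 4, 1 and 0 peaks, Khdrbs2 and Khdrbs3 held 0 and 1, and Igf2bp2 and Igf2bp3 held 2 and 21. Tia1 and Tial1 held 16 each, Nova1 and Nova2 none, Esrp1 and Esrp2 none, and the 4 Cpeb genes 1 in all, in Cpeb3.

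Markers of ES cells, the labelled cell type, held peaks. All 8 of these markers did, against 22.8% of all protein-coding genes. The marker lists were chosen with earlier results of these data known, so this count is no independent check of the cell type. The 8 genes held 214 peaks in all, from 6 in Sox2 to 64 in Esrrb, with 13 in Nanog and 12 in Pou5f1. The 4 fibroblast markers (Col1a1, Col1a2, Col3a1 and Thy1), the 4 neuronal markers (Rbfox3, Map2, Syt1 and Snap25) and the 4 muscle markers (Myod1, Myog, Des and Ttn) held none. Most protein-coding genes held none either, so this absence says little about the cell type.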

How the data were processed

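FLASH was done on WT26 mouse ES cells, with 2 DHX9 and 2 IgG samples. Random adapter bases served to merge PCR duplicates, and IgG and DHX9 pulldowns were pooled before RNA isolation, per the labels' protocols. The deposited list gives peak coordinates only, another kind of value than counts or signal, and PEAKachu is named as the caller per the file's source column. Its version, and how it used the IgG samples, are not stated. Bowtie2 2.2.6 and the builds mm10 and hg19 are named per the submitters' processing notes, and mm10 was taken from the chromosome names.

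Gene bodies came from a RefSeq table of GRCm38.p6, the assembly of mm10, with 49980 placed genes. A peak counted for every gene that held its midpoint. Gene strand came from a RefSeq promoter table where it held the gene, otherwise from the strand of most peaks. Exons and introns were not analysed here. Genes named were the 10 members, their paralogues, the 4 related genes with the most peaks and, for members with at least 50 peaks, the genes next in rank; further related genes were picked with their values in view. The values of 1 gene that this rule names are not reported here. Members and lists were chosen with earlier results of these data known. Computation used Python 3.11.15, pandas 2.3.3 and SciPy 1.17.1. Counting was tested on simulated data, where count and strand were recovered for 200 of 200 genes. Alternatives were any overlap, merging within 50 or 200 bases, peaks of at least the median width, peaks in no other gene or on the majority strand, gene bodies extended by 1 kb, at least 3 peaks, and end bins of 10%.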

Additional observations from a re-analysis of the deposited data

How the results depend on the processing

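Of 54 values recomputed for the main counts and shares, 51 stayed within 1.5 times. The exceptions were the number of peaks in the 10 genes, which was 299 with peaks within 200 bases merged and 318 with only the wider peaks kept (at or above the median of 196 bases), against 584, and the number of protein-coding genes counted as bound, which was 3250 with at least 3 peaks required, against 4989. The 54 include the share of peaks on the majority strand with only such peaks kept, which is 100% by construction. The same 7 genes held peaks under all 8 alternatives for that count. Most of these could hardly remove a gene. Any overlap and extended gene bodies only add peaks, and majority-strand peaks remain in any gene with peaks. All 7 also had at least 3 peaks from the outset. With only the wider peaks Msi1 kept 1 of its 4 peaks. Of 284 values for single genes 48 differed by over 1.5 times: 10 of 70 peak counts, 11 of 70 values per kb and 27 of 144 shares near the gene ends or their differences, none with a turned sign. These shares include end bins of 10%, which hold less of the gene than bins of 20%. A lower share there is partly built in. The order of Rbpms and Msi2 by number of peaks depended on the setting. Rbpms held fewer than Msi2 with peaks merged within 50 bases (133 against 162) or 200 bases (68 against 120). It also held fewer with only peaks in no other gene (177 against 180), and more under the other alternatives. In Rbpms the excess of the first over the last 20% of the gene body was lost when peaks within 200 bases were merged, with 23.5% of runs in each. No paired analysis was possible because the list gives no values per replicate, and leaving out a replicate was not run for the same reason. Depth and RNA amount are unknown, so a gene without peaks may lie below detection.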
